A study of Mus musculus with 2 samples.

Results

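The signalling lymphocytic activation molecule (SLAM) receptors and their adaptors were examined in liver natural killer (NK) cells by name, as 9 genes: Cd244a, Slamf1, Slamf6, Slamf7, Cd48, Cd84, Ly9, Sh2d1a and Sh2d1b1. Of these, 8 had at least 1 probe set listed for them alone, 14 probe sets in all, among 18194 named genes on the array. Sh2d1b1 had none of its own. The cells came from the liver of untreated wild-type mice of the B6 strain and were sorted as NK1.1+ CD3-. Binding of DX5, an antibody to the alpha 2 integrin CD49b, separated them: the DX5- group lacked it and the DX5+ group had it. Each group was 1 Affymetrix array, and neither the age and sex of the mice nor their number is given in the sources used here. With 1 array per group no difference has a replicate check and none was tested, so every fold below describes these arrays.

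SLAM receptors are immunoglobulin-type surface proteins of blood cells. Most bind a copy of themselves on the neighbouring cell, while Cd244a (2B4) binds Cd48. Tyrosine motifs in the tails of most of them recruit the small adaptors SAP, encoded by Sh2d1a, and EAT-2, encoded by Sh2d1b1. In NK cells the adaptors couple the receptors to activation, and in their absence the same motifs can engage inhibitory phosphatases.

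Intensities were summarised and scaled by the authors with MAS5 and are linear. A detection limit was set on each array from 146 probe sets of gene families with little expected use in these cells, such as olfactory receptors. The limit stood at an intensity of 76.3 for DX5- cells and 80.2 for DX5+ cells. A gene with several probe sets is represented by its brightest, and 10705 genes were above the limit on at least 1 array. Probe sets of the same gene differed in log2 ratio (DX5- minus DX5+) with a standard deviation (SD) of 0.34, over 4412 genes with several probe sets above both limits. This spread measures probe noise and leaves out differences between mice and cell preparations. Of 12 NK cell marker genes, 12 were above the limit on both arrays, among them Ncr1 (2390 in DX5- and 1788 in DX5+ cells), the NKp46 receptor gene. Within that list Eomes (8.09-fold) and Prf1 (2.89-fold) were lower in DX5- cells. Itga2, the gene of the DX5 antigen, read 29.0 in DX5- cells, below the limit, and 105 in DX5+ cells. Of 7 liver-resident markers above a limit, 5 rose past 2-fold in the DX5- group, such as Cxcr6 (7425.4 against 772). Il7r and Rgs1 were higher by less. Of 7 markers of circulating mature NK cells, 6 fell past 2-fold in that group, such as Cma1 (476.3 against 6468.5). The remaining one was Itga2.

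The adaptor Sh2d1a differed most among the members. Its intensity was 293 in DX5- cells and 2226 in DX5+ cells, both above the limits, which makes it 7.61-fold lower in DX5- cells. The log2 ratio was -2.93, or 8.58 times the SD between probe sets. Only 20 of the 10705 genes had a lower ratio, and 94 genes (0.878%) were at least 4-fold lower in DX5- cells. Sh2d1a has 1 probe set on this array, so no other probe set bears on the value. Across the scalings and detection limits tried its log2 ratio lay between -2.93 and -2.71. Sh2d1a is also transcribed in T cells, so the T cell markers were read beside it. Of 9 T cell genes above a limit, 5 passed 2-fold upward in DX5- cells and 0 downward, and the intensities of the 11 measured summed to 28265 against 12011. The largest were Cd3g (13.1-fold), Cd3e (4.49-fold), Cd3d (3.33-fold) and Lat (2.55-fold), while Cd4 and Themis were below both limits. The list did not rise as a whole. Cd28, the brightest of it in DX5+ cells, read 7668.4 (DX5-) and 8442.4 (DX5+), so it was slightly lower in DX5- cells. Cd8b1 read 29.6 in DX5- cells, below the limit, and 104.2 in DX5+ cells. Genes of innate-like T cells were few: of 3 above a limit, Trgv4 (4.86-fold) and Zbtb16 were higher in DX5- cells, and Sox13 was below both limits. What part, if any, other cells or the NK cell differences given above had in the Sh2d1a value was not tested.

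The other adaptor could not be read alone. The probe set that covers Sh2d1b1 is listed for Sh2d1b1 and Sh2d1b2 together, and Sh2d1b2 encodes the related adaptor ERT. It read 1406 (DX5-) and 1590 (DX5+), 1.13-fold lower in DX5- cells and within the SD between probe sets. The signal of these paralogues therefore differed little between the arrays, while that of Sh2d1a differed 7.61-fold. A difference that goes opposite ways in Sh2d1b1 and Sh2d1b2 would not show in their common signal. The paralogues lie near each other on chromosome 1, and the 250 bases before their start sites are shown to let their likeness be seen. These are RefSeq sequences of build GRCm38.p6, on the plus strand at chr1:170277068-170277317 for Sh2d1b1 and chr1:170232621-170232870 for Sh2d1b2. Over 190 aligned positions 170 were identical (89.5%). Capitals mark matches to the motifs described with the receptor promoters.
Sh2d1b1: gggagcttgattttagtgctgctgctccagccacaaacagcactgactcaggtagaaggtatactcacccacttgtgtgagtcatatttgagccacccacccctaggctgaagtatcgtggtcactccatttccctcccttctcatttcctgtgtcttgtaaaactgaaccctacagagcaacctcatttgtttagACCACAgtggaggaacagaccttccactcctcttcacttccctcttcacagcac
Sh2d1b2: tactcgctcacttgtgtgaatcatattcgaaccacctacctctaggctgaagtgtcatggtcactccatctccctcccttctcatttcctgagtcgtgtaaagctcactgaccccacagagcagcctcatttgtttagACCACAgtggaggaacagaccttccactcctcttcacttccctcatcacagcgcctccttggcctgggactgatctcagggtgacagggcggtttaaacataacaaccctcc

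**Figure D1:**
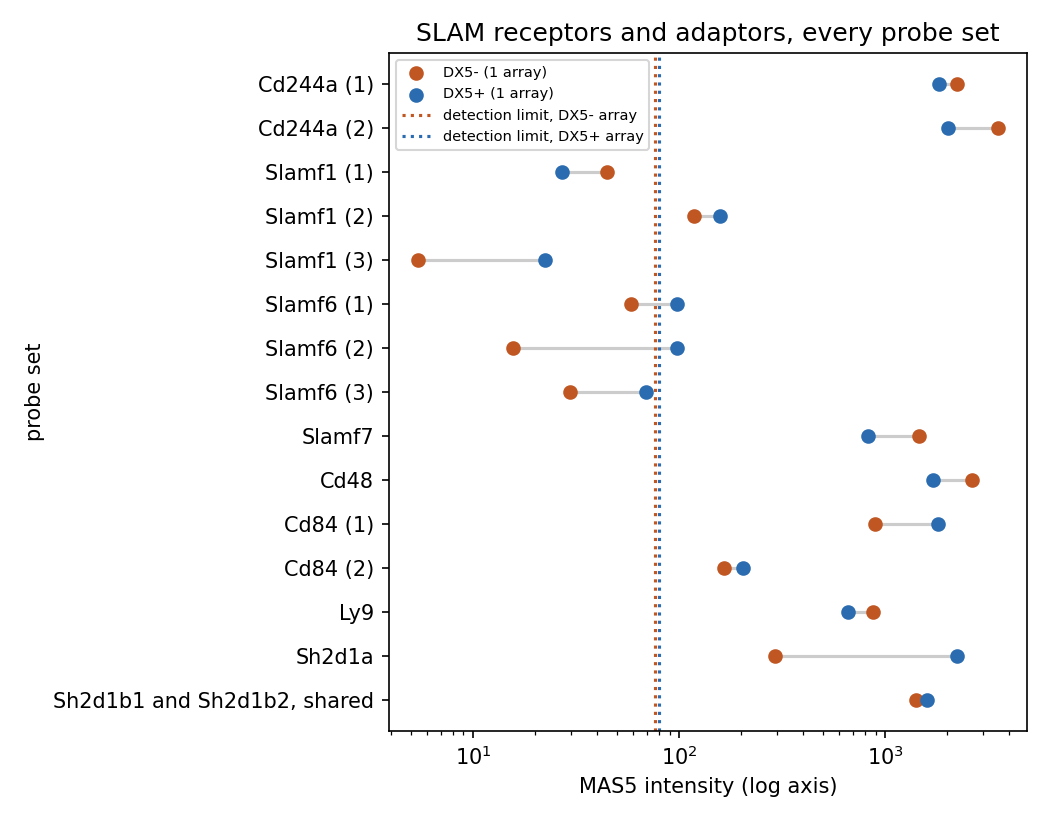
MAS5 intensity on a log axis for every probe set of the members and for the probe set shared by Sh2d1b1 and Sh2d1b2, with 1 point per array and a dotted line at each array's detection limit. Sh2d1a is the widest gap among probe sets above both limits (293 against 2226); all Slamf6 points and most Slamf1 points lie near or under the limits.

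Among the 7 receptor genes, 4 read higher and 3 lower in DX5- cells. None was at least 2-fold higher, beside 405 of all 10705 genes (3.78%). Cd84 alone was at least 2-fold lower, beside 602 of all genes (5.62%). With the arrays scaled to their spike-in controls the split over all genes became 708 higher and 393 lower. A lower threshold of 1.5-fold was chosen after the values had been seen. At that threshold 3 receptor genes were higher, against 10.8% of all genes, and 1 was lower, against 14.0%. The median log2 ratio was 0.40 over the receptors, 0.020 over all 8 members and -0.020 over all genes.

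Cd244a, the 2B4 receptor, read 3551 (DX5-) and 2018 (DX5+) on its brighter probe set, 1.76-fold higher in DX5- cells. Its other probe set read 2226 and 1833, a 1.21-fold difference in the same direction. Cd48, the membrane-anchored ligand of 2B4, read 2644 and 1708, 1.55-fold higher in DX5- cells. Receptor and ligand transcripts thus both read higher in DX5- cells, on 2 probe sets for Cd244a and on 1 for Cd48. The dimmer Cd244a probe set, with a log2 ratio of 0.28, was within the SD between probe sets. The mean over both gave 0.55. Slamf7, the self-binding receptor CRACC that signals through EAT-2, read 1466 (DX5-) and 826 (DX5+), 1.77-fold higher. Ly9, also called CD229, read 876 and 663, 1.32-fold higher. Its log2 ratio of 0.40 was 1.18 times the SD between probe sets, while those of Slamf7 (0.83), Cd244a (0.82) and Cd48 (0.63) were 2.43, 2.39 and 1.85 times it. With spike-in scaling, which takes a shift of -0.22 off every log2 ratio, Cd244a (1.03) and Slamf7 (1.04) passed 2-fold.

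Cd84, a self-binding receptor of lymphocytes, myeloid cells and platelets, read 897 (DX5-) and 1804 (DX5+), 2.01-fold lower in DX5- cells. Its dimmer probe set read 166 and 205, 1.24-fold lower, so both pointed the same way by different amounts. The mean over both gave a log2 ratio of -0.66, and with spike-in scaling it was -0.79, both short of 2-fold. Platelet and macrophage markers were lower in DX5- cells too. All 9 platelet genes measured were at least 2-fold lower, led by Clec1b (8.26-fold), Ppbp (7.45-fold), Gp1bb (at least 7.39-fold) and Tubb1 (6.34-fold), and their intensities summed to 1311 against 6611. Of 7 macrophage and monocyte genes above a limit, 6 were at least 2-fold lower, led by Lyz1 (6.40-fold), Mpeg1 (4.25-fold), Lyz2 (3.44-fold) and Csf1r (at least 3.05-fold), and the 13 measured summed to 1808 against 6642. C1qa, C1qb, C1qc, Clec4f, Vsig4 and Marco, which mark tissue macrophages, were below both limits. Neutrophil genes were mixed: of 8 above a limit, S100a8 (2.51-fold), S100a9 (2.90-fold) and Ngp (2.94-fold) were lower and Mmp9 (4.74-fold) was higher in DX5- cells. Of 4 basophil and mast cell genes above a limit, Cpa3 (4.65-fold) was lower and 0 passed 2-fold upward, and of 8 dendritic cell genes Siglech (3.39-fold) was lower. The part of these cells in the Cd84 value was not tested.

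The remaining receptors were close to or under the detection limits. Slamf1 (CD150), a receptor of activated T cells and blood progenitors, read 118 (DX5-) and 159 (DX5+) on its brightest probe set, 1.34-fold lower. Its other probe sets read 44.8 and 27.0, and 5.4 and 22.5, below both limits and in opposite directions. Of 4 progenitor genes above a limit and 7 B cell and plasma cell genes above a limit, 0 passed 2-fold. The brightest of each list were well above the limits on both arrays: Kit read 1738.5 (DX5-) and 1738.9 (DX5+), and Ighm 4134.5 and 3825.8. Cd34, Mecom, Procr and Cd79a were below both limits. Slamf6 (Ly108) read 58.7 in DX5- cells, below the limit, and 98.1 in DX5+ cells, at least 1.29-fold lower. Another probe set read 15.6 against 97.8, at least 1.28-fold lower, and the last read 29.5 against 69.3, below both limits, so it gives no direction. The size of the Slamf6 difference is not fixed by these intensities. With the limits at the 99th percentile, 142 and 123, Slamf6 was below both.

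**Figure D2:**
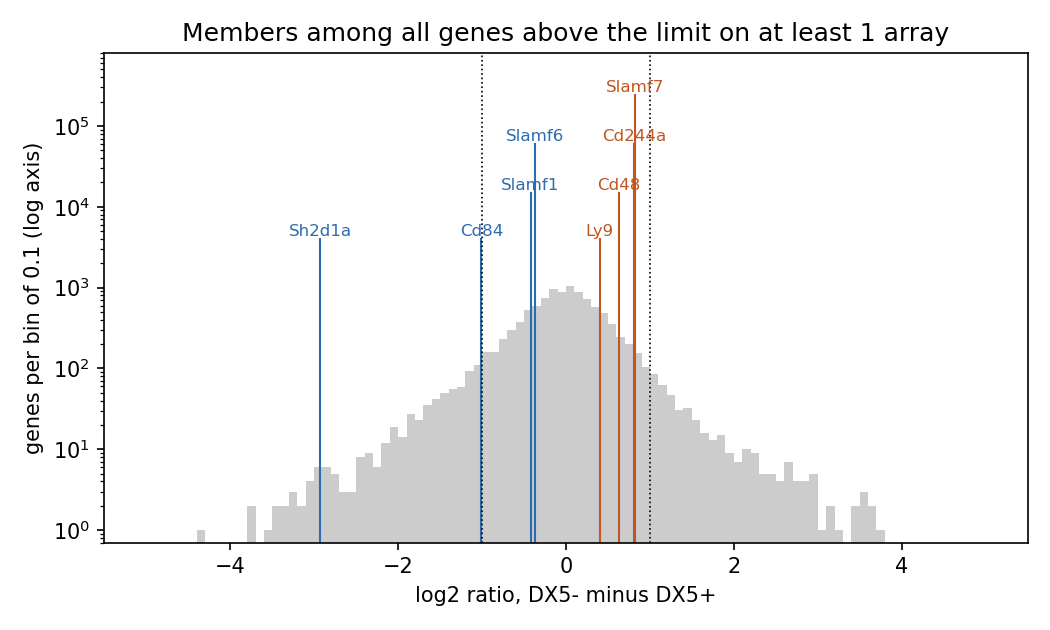
Histogram of the log2 ratio (DX5- minus DX5+) of the 10705 genes above the limit on at least 1 array, with genes per bin on a log axis, the 8 members as lines and 2-fold as dotted lines. Sh2d1a (-2.93) lies in the thin lower tail, Cd84 (-1.01) at the 2-fold line, and the other 6 members between -0.42 and 0.83.

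The 7 receptor genes form a cluster on chromosome 1, and Sh2d1a lies on chromosome X. In the order of RefSeq assembly GRCm38.p6 the cluster runs Cd244a, Ly9, Slamf7, Cd48, Slamf1, Cd84, Slamf6. The 4 genes at the Cd244a end were those that read higher in DX5- cells, and the 3 at the Slamf6 end those that read lower. Slamf1 and Slamf6 at the latter end are dim, so the step rests mainly on Cd84. The protein-coding neighbours of the cluster gave little to compare. F11r (76.6 against 69.6) and Vangl2 (77.1 against 56.7) were just above the limit in DX5- cells only, Itln1 and Nhlh1 were below both limits, and Ncstn read 171 against 188.

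**Figure D3:**
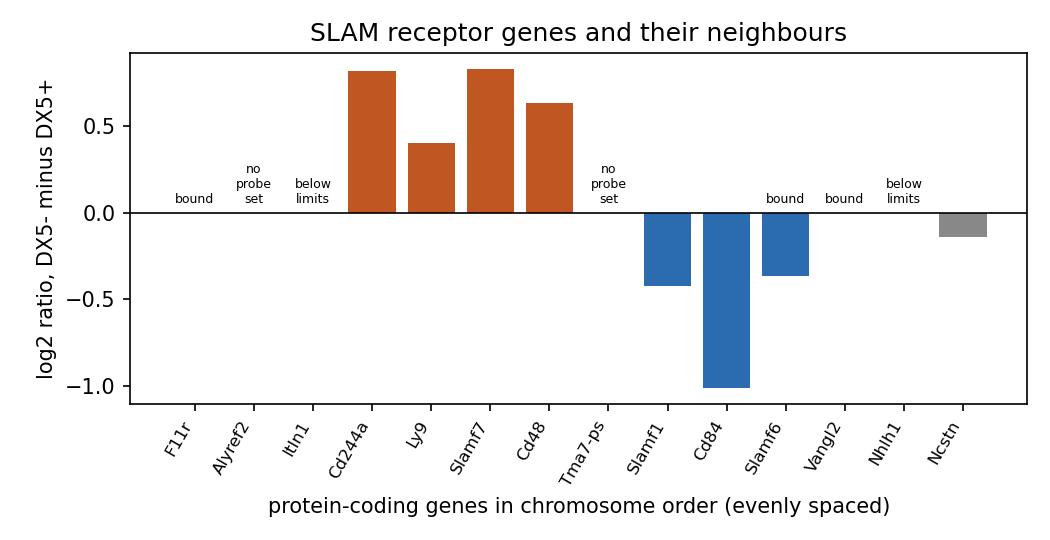
Log2 ratio (DX5- minus DX5+) of the protein-coding genes from F11r to Ncstn in chromosome order, evenly spaced, with members coloured and neighbours grey; "bound" marks genes above the limit on 1 array only. Bars run from 0.82 at Cd244a to 0.63 at Cd48 on the upper side, then lie below 0 at Slamf1, Cd84 (-1.01) and Slamf6.

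Promoter sequence is shown for Cd244a, Slamf7 and Cd84, the receptor genes furthest apart in ratio, to set the neighbours that differ in direction beside each other. Each run is the 250 bases before the start site listed by RefSeq (GRCm38.p6), on the gene's own strand. They lie at chr1:171558943-171559192 (plus strand) for Cd244a, chr1:171649000-171649249 (minus strand) for Slamf7 and chr1:171839447-171839696 (plus strand) for Cd84. Capitals mark matches, on either strand, to a T-box core (AGGTGT, the family of Eomes and T-bet), a Runx core (TGTGGT) or an Ets core (AGGAAG), which share no overlapping match here. Over 32851 windows of this length, 11.8% hold the T-box letters, 14.0% the Runx letters and 29.5% the Ets letters.
Cd244a: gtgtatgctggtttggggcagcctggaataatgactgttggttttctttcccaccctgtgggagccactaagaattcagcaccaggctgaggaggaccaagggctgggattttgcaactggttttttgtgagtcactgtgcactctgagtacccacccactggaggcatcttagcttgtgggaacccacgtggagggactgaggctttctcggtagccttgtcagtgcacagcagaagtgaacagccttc
Slamf7: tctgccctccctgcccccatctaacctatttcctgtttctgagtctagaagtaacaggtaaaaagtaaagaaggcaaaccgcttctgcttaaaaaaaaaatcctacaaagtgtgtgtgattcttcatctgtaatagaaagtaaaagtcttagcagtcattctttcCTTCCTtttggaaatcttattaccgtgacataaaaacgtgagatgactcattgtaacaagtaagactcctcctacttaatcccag
Cd84: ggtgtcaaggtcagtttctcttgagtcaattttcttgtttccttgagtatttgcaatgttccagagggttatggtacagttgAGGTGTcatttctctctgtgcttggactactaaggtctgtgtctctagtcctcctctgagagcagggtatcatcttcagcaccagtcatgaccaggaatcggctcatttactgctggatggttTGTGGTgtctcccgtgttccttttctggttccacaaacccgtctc
Cd84 has 1 T-box match, from 168 to 163 bases before the start, and 1 Runx match, from 45 to 40 bases before it. Slamf7 has 1 Ets match on the opposite strand, from 85 to 80 bases before the start, and Cd244a holds none of these letters. Among the members not shown, Cd48, higher in DX5- cells, has 1 Runx match, Slamf1 has 1 T-box and 1 Ets match, and Slamf6, lower like Cd84, has none. The sources used here held no promoter sequence for Sh2d1a or Ly9, so neither was searched. Sh2d1b1 and Sh2d1b2 each have 1 Runx match on the opposite strand. These matches are letters in a window and were not tested for binding.

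Genes to set beside the receptors were taken from a list of 36 relatives, partners and signalling genes. Of these, 32 had a probe set of their own and 31 were above a limit. In DX5- cells 5 passed 2-fold upward, beside 3.78% of all genes, and 3 downward, beside 5.62%, with a median log2 ratio of 0.059. These genes were listed from general knowledge of SLAM signalling and a gene counts by its brightest probe set. The 3 lower genes were all surface proteins from the group listed as relatives and partners. No link of Crtam to the SLAM receptors was tested. Cd2, an adhesion receptor that also binds CD48, read 3323 (DX5-) and 9344 (DX5+), 2.81-fold lower. Crtam, an adhesion receptor of activated NK and T cells, read 440 and 1288, 2.93-fold lower. Slamf9, a short-tailed SLAM relative, read 67.6, below the limit, and 155, at least 2.03-fold lower, and Slamf8 was below both limits. The Slamf9 bound rests on the limit chosen: it was 1.09-fold with the limits at the 99th percentile, and it was also short of 2-fold with quantile normalization, spike-in scaling and the offset.

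Of 5 kinases listed, 3 had a probe set of their own, and Lck and Lyn had none. Those 3 kinases and the 3 phosphatases listed were within 2-fold on their brightest probe sets. Fyn, the kinase that SAP brings to the receptors, read 5129 (DX5-) and 8696 (DX5+), 1.70-fold lower. Its other probe set read 2577 and 5497, 2.13-fold lower, so both Fyn probe sets pointed the same way as Sh2d1a. Csk, which restrains Src-family kinases, read 2564 and 1676, 1.53-fold higher. Ptpn6 (SHP-1) was 1.41-fold lower and Ptpn11 (SHP-2) 1.09-fold lower in DX5- cells. Inpp5d, the gene of the lipid phosphatase SHIP-1, read 2973 and 2933, a log2 ratio of 0.019.

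The genes at least 2-fold higher in DX5- cells lay further downstream. Plcg1, a phospholipase C of antigen receptor and SLAM signalling, read 672 (DX5-) and 139 (DX5+), 4.84-fold higher on its brightest probe set. Its other probe sets were not above both limits (83.4 against 58.7 and 34.1 against 3.1), and with the mean over probe sets it was at least 1.55-fold higher, short of 2-fold. Plcg2, the related enzyme, read 2293 and 1485, 1.54-fold higher. Vav3, a guanine nucleotide exchange factor, read 1098 and 286, 3.84-fold higher, and 2.68-fold on the other probe set above both limits. Vav1 (732 and 696) and Vav2 (210 and 241) were within 1.15-fold on their brightest probe sets, and a dimmer Vav1 probe set was 1.39-fold lower. The adaptor genes Lat (2933 and 1150) and Lcp2 (6228 and 2909, SLP-76) were 2.55-fold and 2.14-fold higher. Lat was also 1 of the 5 T cell markers past 2-fold given above. Zbtb16, which encodes PLZF, a transcription factor of innate-like lymphocytes, read 820 and 405, 2.02-fold higher. Its dimmest probe set read 125 and 97.4, 1.29-fold higher, and with the mean over probe sets (1.80-fold) or the offset (1.91-fold) Zbtb16 was short of 2-fold. Nfatc2 (1.74-fold) and Bcl10 (1.42-fold) were higher by less than 2-fold on their brightest probe sets; with the mean over probe sets Nfatc2 was 1.06-fold higher, and 1 dimmer Bcl10 probe set was 2.03-fold higher. Cblb, a ubiquitin ligase, had no common direction, 1.18-fold lower on its brightest probe set (6819 and 8049) and up to 1.15-fold higher on the others. Rasa1 (4020 and 4388), a Ras regulator, was 1.09-fold lower and Dok2 (4226 and 3662), an adaptor that restrains Ras, 1.15-fold higher. The phagosome partners Becn1, Pik3c3, Uvrag and Ap2m1 differed by at most 1.32-fold on their brightest probe sets, although a dim Becn1 probe set (113 and 211) was 1.87-fold lower.

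**Figure D4:**
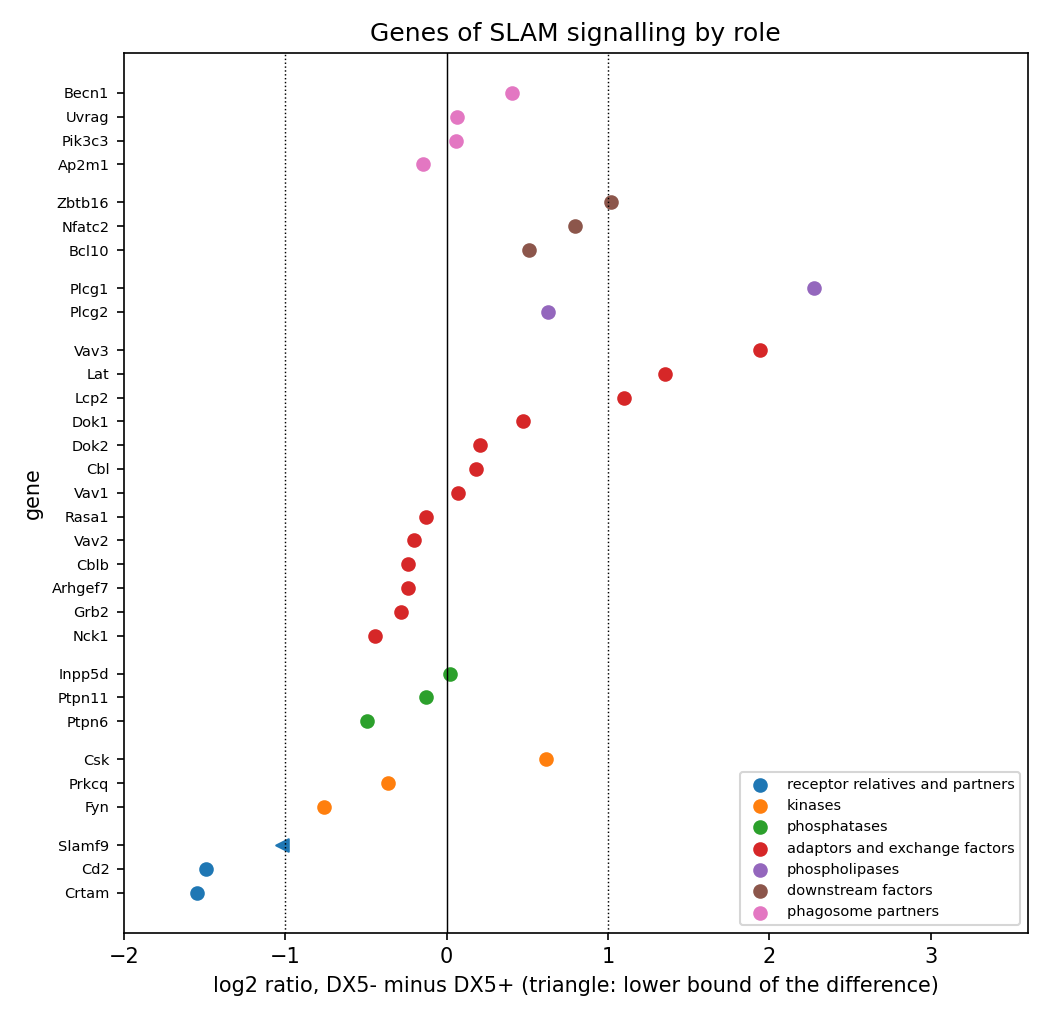
Log2 ratio (DX5- minus DX5+) of the 31 partner and signalling genes above a limit, grouped and coloured by role, with 2-fold as dotted lines; the triangle is a lower bound. The genes listed as receptor relatives and partners lie at or beyond the lower line, and Plcg1 (2.28), Vav3 (1.94), Lat (1.35), Lcp2 and Zbtb16 (1.02) beyond the upper one.

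**Figure D5:**
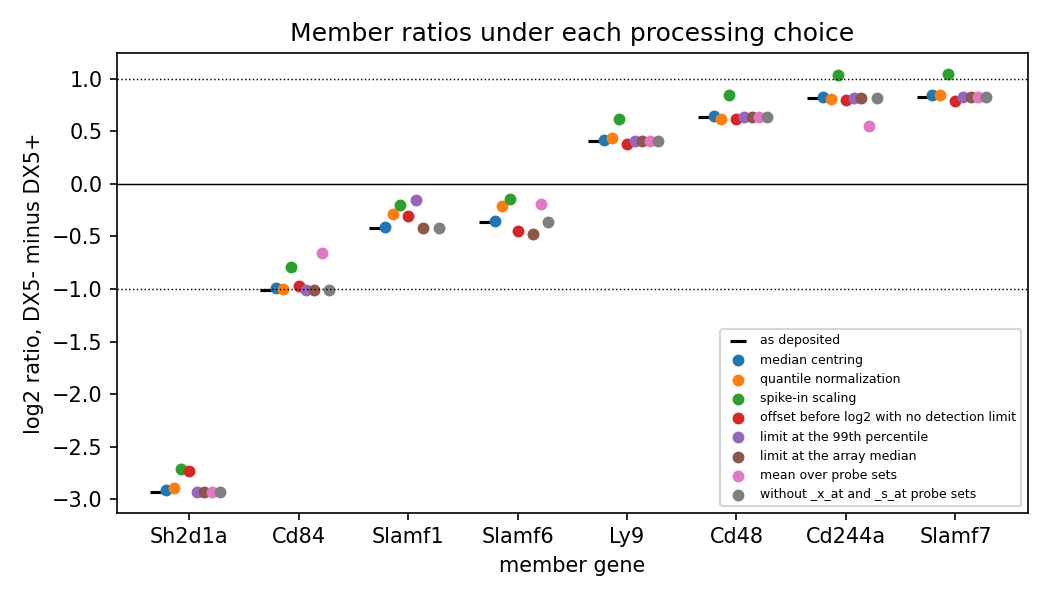
Log2 ratio (DX5- minus DX5+) of each member gene as deposited (bar) and under each alternative (points), with 2-fold as dotted lines. Each member keeps its side of 0 wherever it has a value, Cd84 crosses the lower 2-fold line, and Cd244a and Slamf7 reach the upper one with spike-in scaling (1.03 and 1.04).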

How the data were processed

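RNA of DX5- and DX5+ NK cells was hybridised to 1 Affymetrix array each. The deposited values are linear intensities that the authors made with MAS5, per the submitters' processing notes; no version or setting is given in the sources used here. The mean without the lowest and highest 2% of the 45101 probe sets was 500.0 on both arrays, so both share a scaling target, and the medians were 70.3 (DX5-) and 78.0 (DX5+). The table has no detection calls, so the error of a single intensity is not known; having 1 array per group limits precision. Probe sets were named from the platform annotation: of 35890 listed, 34958 had 1 gene symbol and 932 several, which name no gene, and 9211 more are unnamed. Gene identifiers were matched to current RefSeq symbols (GRCm38.p6); 0 member symbols changed.

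Intensities were taken to log2 with no offset. Limits were the 95th percentile of olfactory, vomeronasal and taste receptor, keratin-associated, crystallin and opsin probe sets. A value under its limit was set to the limit and the fold called "at least". Of the 18 spike-in probe sets 18 were lower on the DX5- array (median log2 ratio -0.22), and the ratio of 3' to 5' actin signal was 1.73 (DX5-) and 1.62 (DX5+). The calling steps were tested on simulated folds, placed only on genes well above the limits and none of them near 2-fold. Calls close to 2-fold or to a limit were therefore not covered. All members were named, with pathway genes past 2-fold, the 6 brightest others, and up to 4 markers past 2-fold per list that bears on a member; Csk, Plcg2, Nfatc2, Vav1, Vav2, the phosphatases and the other phagosome genes were chosen after their values were seen. The members and lists were chosen with earlier results of these data known. Cd28, Cd8b1, Ighm, Kit and the markers of liver-resident and circulating NK cells were also named after their values were seen. Python 3.11.15, numpy 2.4.6 and pandas 2.3.3 were used.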

Additional observations from a re-analysis of the deposited data

How the results depend on the processing

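Over 8 alternatives (median centring, quantile normalization, spike-in scaling, an offset of 50 before log2 with no limit, limits at the 99th percentile or the array median, the mean over probe sets, and leaving out _x_at and _s_at probe sets), each of the 8 members kept its direction wherever it had a value. Slamf1 had none with the mean over probe sets and Slamf6 none at the 99th percentile, being below both limits there. Sh2d1a, Slamf7, Cd48 and Ly9 have 1 probe set each, above both limits. The choices of limit and of probe set therefore could not change their ratios, and only the scalings and the offset bear on them. Cd244a and Cd84 were above every limit tried on both arrays, so the choice of limit could not change theirs either. No member has an _x_at or _s_at probe set, so leaving those out changed no member. Where Slamf6 was above the limit in DX5+ cells only, the calling allowed no ratio in the other direction. Of the 2 members at least 2-fold apart, 1 (Sh2d1a) was left with median centring, with the offset and with the mean over probe sets, since Cd84 was then short of the threshold; with spike-in scaling there were 3, Sh2d1a, Cd244a and Slamf7. The members' median log2 ratio was 0.40 under the 99th percentile limit and also under the mean over probe sets, where a dim member drops out, and -0.0099 with the limit at the array median. Pathway genes at least 2-fold apart numbered 6 to 8: Cd2, Crtam, Lat, Lcp2 and Vav3 passed under all 8 alternatives, Plcg1 did not with the mean over probe sets, Zbtb16 with that mean or the offset, and Slamf9 with quantile normalization, spike-in scaling, the offset or the 99th percentile limit, while Nfatc2 passed with spike-in scaling (2.02-fold). No paired analysis was possible because each group has 1 array, and for the same reason no replicate could be left out. Dim signal limits Slamf1 and Slamf6 most.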
